A study of Mus musculus with 2 samples.

Results

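The miR-181 family of the mouse consists of 6 miRNA genes, which are Mir181a-1, Mir181b-1, Mir181a-2, Mir181b-2, Mir181c and Mir181d. The genes were chosen by name, through their Ensembl identifiers, out of the 1973 miRNA genes of the count tables, and all 6 had counts. MicroRNA sequencing, which reads the short RNAs of a sample, was applied to total RNA of the neural tube, the embryonic tissue that forms the brain and spinal cord, in B6NCrl mouse embryos of 14.5 days. The 2 libraries form 1 group and carry no treatment or mutation. Replicate 1 is from pup 1 of dam 1 and replicate 2 from pup 1 of dam 2. The labels give a single neural tube per library and also a pooled male and female sex, and which of these holds was not settled here. The comparison open to this design is that of the library of dam 1 with the library of dam 2.

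A miRNA is cut from a hairpin with a 5p and a 3p arm, and the arm that is loaded into Argonaute guides it to messenger RNAs, mainly through the seed, bases 2 to 8 from its 5′ end. Family members with the same seed can bind overlapping sets of messenger RNAs. The miR-181 genes lie as neighbouring pairs at 3 loci, each pair in the same orientation. The family is best known from mouse lymphocytes, where miR-181a sets the sensitivity of the T cell receptor, and it is also found in neurons, astrocytes and retina of vertebrates.

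The sequences below are shown because they decide which reads can be assigned to 1 gene. They are the mature 5p arms from RefSeq (GRCm38.p6), 5′ to 3′, with the seed in capitals.
miR-181a-5p: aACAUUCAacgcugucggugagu
miR-181b-5p: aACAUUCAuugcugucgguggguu
miR-181c-5p: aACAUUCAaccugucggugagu
miR-181d-5p: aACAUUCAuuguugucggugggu
All 4 share the seed ACAUUCA, and 0 genes outside the family carry that seed among the 1738 mature arms of the table. MiR-181a-5p is encoded by 2 genes, at chr1:137966468-137966490 in Mir181a-1 and at chr2:38852741-38852763 in Mir181a-2, both on the plus strand. MiR-181b-5p is likewise encoded at chr1:137966650-137966673 in Mir181b-1 and at chr2:38853845-38853868 in Mir181b-2. MiR-181c-5p, at chr8:84178924-84178945, and miR-181d-5p, at chr8:84178759-84178781, both on the minus strand, each matched 1 of the 2201 miRNA genes searched. Between miR-181b-5p and miR-181d-5p the substitution is C12U, counted from 1 at the 5′ end, with miR-181b-5p also 1 base longer. MiR-181a-5p and miR-181c-5p are at an edit distance of 1.

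The 3p arms differ between all 6 genes, so a whole 3p arm read without mismatch fits 1 of the 2201 miRNA genes searched. With up to 1 mismatch, miR-181b-1-3p also matched Mir181b-2. The 3p arms are shown in the same way, again with bases 2 to 8 in capitals.
miR-181a-1-3p: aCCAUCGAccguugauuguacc
miR-181a-2-3p: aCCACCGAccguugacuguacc
miR-181b-1-3p: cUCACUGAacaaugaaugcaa
miR-181b-2-3p: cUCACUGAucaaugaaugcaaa
miR-181c-3p: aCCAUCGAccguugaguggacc
miR-181d-3p: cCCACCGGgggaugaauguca
These 6 arms hold 4 seeds. MiR-181a-1-3p and miR-181c-3p share CCAUCGA, and miR-181b-1-3p and miR-181b-2-3p share UCACUGA. The 3p arms of the Mir181a genes differ by U5C and U16C, in the order Mir181a-1 to Mir181a-2, and those of the Mir181b genes by A9U, in the order Mir181b-1 to Mir181b-2.

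The deposited counts place a read that fits several positions in no gene, and such reads came to 1922391 (32.4% of the table) in replicate 1 and 2353481 (33.3%) in replicate 2. The hairpins of the copied arms show how far a 5p read must reach before it fits 1 gene alone. Mature arms are in capitals.
Mir181a-1: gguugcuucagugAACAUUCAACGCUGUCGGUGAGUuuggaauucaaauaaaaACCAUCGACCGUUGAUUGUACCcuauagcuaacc
Mir181a-2: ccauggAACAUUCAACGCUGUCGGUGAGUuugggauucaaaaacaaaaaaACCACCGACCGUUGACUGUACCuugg
Mir181b-1: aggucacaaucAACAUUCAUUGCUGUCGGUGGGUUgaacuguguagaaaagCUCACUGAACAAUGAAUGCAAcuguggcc
Mir181b-2: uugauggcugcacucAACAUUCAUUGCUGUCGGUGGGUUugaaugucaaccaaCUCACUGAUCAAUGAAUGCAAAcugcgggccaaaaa
After the 23 bases of miR-181a-5p the hairpins agree for 4 more bases, so a read that begins with the arm needs 28 bases to reach the first difference, A28G in the order Mir181a-1 to Mir181a-2. After the 24 bases of miR-181b-5p they differ at once, by G25U in the order Mir181b-1 to Mir181b-2, so 25 bases are enough. On the other side the hairpins agree for 1 base before miR-181a-5p and for 2 bases before miR-181b-5p. The labels give a size range below 30 without a unit. The counts are per gene and do not separate arms or read lengths, so which reads made up the counts of these 4 genes was not tested.

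Mir181c and Mir181d, the genes with a 5p arm of their own, had the highest counts of the family. Levels are counts per 1000000 sense counts on miRNA genes (CPM). The library totals were 3172235 sense counts in replicate 1 and 3671915 in replicate 2, and exact 95% binomial intervals cover counting error only. The arms are 21 to 24 bases long, so CPM was not divided by length. Over all detected miRNA genes with a RefSeq arm (detected is defined below), an arm of their own did not go with a higher median. The 260 genes with no arm at another locus had medians of 128 CPM in replicate 1 and 185 CPM in replicate 2. The 42 with at least 1 arm at another locus had 243 and 246 CPM. Genes left with too few placed reads are not in these medians. With undetected genes included, the 829 genes with no arm at another locus held 96.1% and 95.8% of sense counts. The 87 genes with such an arm held 2.24% in replicate 1 and 2.13% in replicate 2. The part of copied arms in the order of the family was not tested. Mir181c, which in rat heart is known to act on mitochondria, had 28900 counts in replicate 1 and 37514 in replicate 2, or 9110 CPM (9006 to 9215) and 10216 CPM (10114 to 10320). It ranked 15 and 14 among all miRNA genes. Mir181d, studied in human glioma as a regulator of MGMT, had 16383 and 19640 counts, or 5164 CPM (5086 to 5244) in replicate 1, against 5349 CPM (5274 to 5424) in replicate 2. Both genes lie in an intron of Nanos3, a gene of germ cell development, on the same strand. Mir181c is at chr8:84178873-84178961 and Mir181d at chr8:84178716-84178787, with 85 bases between them.

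Of the genes with a copied 5p arm, Mir181a-1 was highest. Mir181a-1 had 9085 counts in replicate 1 and 12457 in replicate 2, or 2864 CPM (2805 to 2923) and 3393 CPM (3333 to 3453). Its neighbour Mir181b-1, with 97 bases between them, was the lowest of the 6, with 23 and 58 counts, or 7.25 CPM (4.60 to 10.9) and 15.8 CPM (11.99 to 20.4). Mir181a-1 (chr1:137966455-137966541) and Mir181b-1 (chr1:137966639-137966718) both lie in an intron of the noncoding transcript Gm4258 and overlap an exon of the lincRNA A430106G13Rik on the plus strand, and the lincRNA Gm26936 spans them on the other strand. In mouse this is the locus known for its part in T cell development. At the other copy the order was the reverse. Mir181b-2 stood at 3151 counts in replicate 1 and at 5447 in replicate 2, or 993 CPM (959 to 1029) and 1483 CPM (1444 to 1523). Mir181a-2 had 1807 and 1800 counts, or 570 CPM (544 to 597) in replicate 1, against 490 CPM (468 to 513) in replicate 2. Mir181a-2 (chr2:38852735-38852810) and Mir181b-2 (chr2:38853830-38853918), with 1019 bases between them, lie opposite an intron of the nuclear receptor gene Nr6a1. Mir181b-2 also overlaps an exon of Gm44144 on the opposite strand. The nearest annotated gene of their own strand that is no miRNA gene, Nr6a1os, ends 365 bases before Mir181a-2.

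The order Mir181c, Mir181d, Mir181a-1, Mir181b-2, Mir181a-2, Mir181b-1 was the same in both libraries, and in no case did the values of neighbours in this order overlap. As mean ± SD over the libraries (n = 2), the levels were 9663 ± 782 CPM for Mir181c, 5257 ± 130 CPM for Mir181d, 3128 ± 374 CPM for Mir181a-1, 1238 ± 347 CPM for Mir181b-2, 530 ± 56.2 CPM for Mir181a-2 and 11.5 ± 6.04 CPM for Mir181b-1. The smallest step was that from Mir181d to Mir181a-1 in replicate 2, at 1.58-fold, and the largest that from Mir181a-2 to Mir181b-1 in replicate 1, at 78.6-fold. Each of the 6 genes had 0 counts on the other strand in both libraries, which allows up to 3 counts per library (0.946 CPM in replicate 1, 0.817 CPM in replicate 2). Because reads at several positions were left out, this is the order of reads placed at 1 gene and not that of the mature miRNAs.

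**Figure D1:**
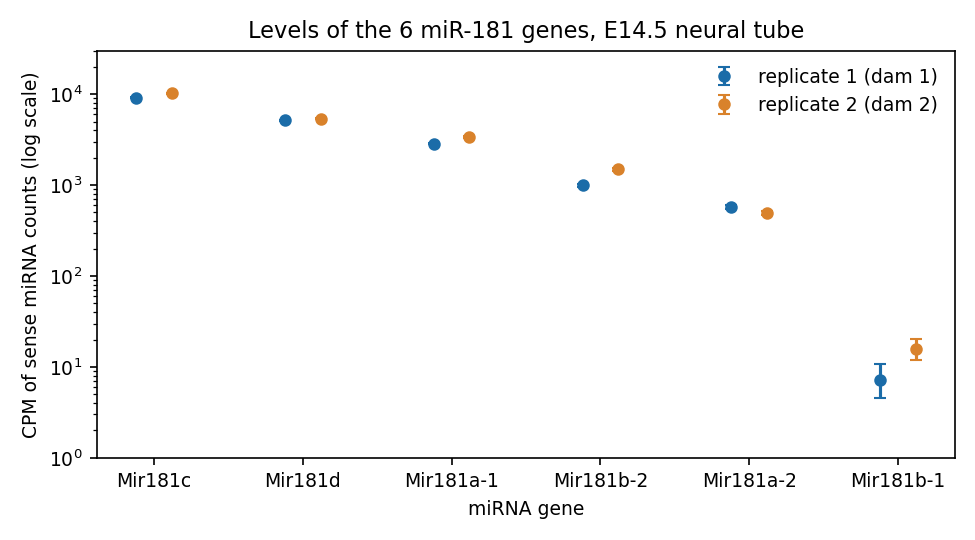
Level of each miR-181 gene in CPM of sense miRNA counts on a log axis, in replicate 1 (blue, left) and replicate 2 (orange, right), with exact 95% intervals of counting error as bars. Mir181c is highest in both libraries and Mir181b-1, at 7.25 and 15.8 CPM, is far below the other 5 genes.

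Summed over the 6 genes, the family had 59349 counts in replicate 1 and 76916 in replicate 2, or 1.87% and 2.09% of all sense miRNA counts (1.98% ± 0.158, SD, n = 2). Among groups of miRNA genes with the same number in their name, its summed mean level ranked 7 of 532 groups with counts. The sums and this rank count only reads placed at 1 gene, in the family and in the other groups. The Mir181c and Mir181d locus held 76.3% of the family's counts in replicate 1 (exact 95% interval 76.0 to 76.6) and 74.3% in replicate 2 (74.0 to 74.6). The Mir181a-1 and Mir181b-1 locus held 15.3% (15.1 to 15.6) and 16.3% (16.0 to 16.5). The Mir181a-2 and Mir181b-2 locus held 8.35% (8.13 to 8.58) in replicate 1 and 9.42% (9.22 to 9.63) in replicate 2. The 4 genes with a copied 5p arm together thus had 24.7% ± 1.41 of the family's counts. Mir181c alone had 48.7% in replicate 1 and 48.8% in replicate 2, and these intervals overlap (48.3 to 49.1 and 48.4 to 49.1).

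Ratios between members of 1 library do not depend on how libraries are scaled. At the chromosome 8 locus Mir181c exceeded Mir181d 1.76-fold in replicate 1 and 1.91-fold in replicate 2. The log2 difference of these ratios, replicate 1 minus replicate 2, was -0.11 (exact 95% interval -0.15 to -0.08), a small shift that is still larger than counting error. At the chromosome 2 locus Mir181b-2 exceeded Mir181a-2 1.74-fold in replicate 1 and 3.03-fold in replicate 2, a log2 difference of -0.80 (-0.91 to -0.68). At the chromosome 1 locus Mir181a-1 exceeded Mir181b-1 395-fold in replicate 1 and 215-fold in replicate 2, a log2 difference of 0.88 (0.16 to 1.64) that rests on the 23 and 58 counts of Mir181b-1. All 3 proportions thus differed between the libraries by more than counting error, that of Mir181c to Mir181d the least.

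**Figure D2:**
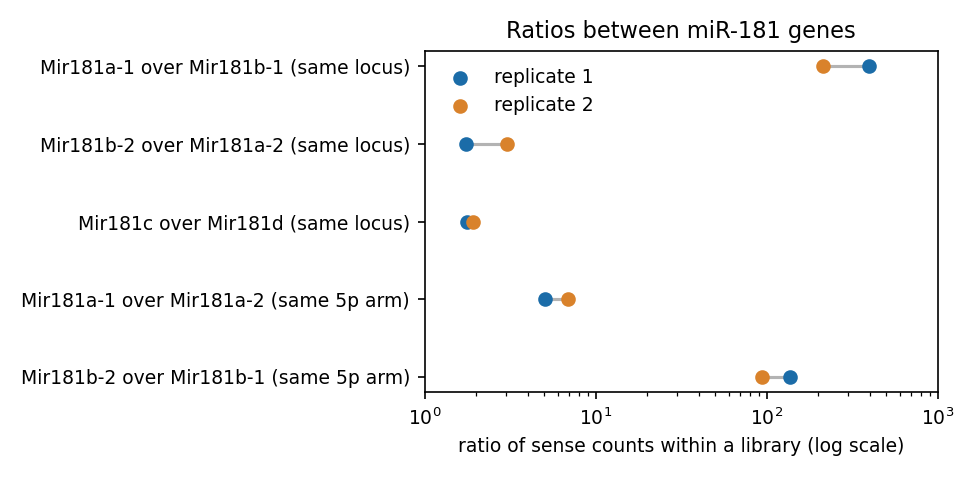
Ratio of sense counts between pairs of miR-181 genes within replicate 1 (blue) and replicate 2 (orange), on a log axis, for the 3 pairs of neighbours at a locus and the 2 pairs with an identical 5p arm. Mir181c over Mir181d shifts the least between the libraries, at 1.76 and 1.91, while Mir181b-2 over Mir181a-2 is 1.74 in replicate 1 and 3.03 in replicate 2.

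The copies of an identical 5p arm did not have equal counts. Mir181a-1 exceeded Mir181a-2 5.03-fold in replicate 1 and 6.92-fold in replicate 2, a log2 difference of -0.46 (exact 95% interval -0.56 to -0.36). For miR-181b the gene with more counts was the other copy. Mir181b-2 exceeded Mir181b-1 137-fold in replicate 1 and 93.9-fold in replicate 2, a log2 difference of 0.54 (-0.18 to 1.31). As described above, these hairpins part at the first base after the arm. Over all miRNA genes of the tables, 24 pairs shared an arm found at exactly 2 loci of the RefSeq table and had at least 10 counts in all. The median of the larger count over the smaller, with 0.5 added to each count, was 3-fold in replicate 1 and 3.73-fold in replicate 2. By the mean over both libraries the Mir181b pair ranked 2 and the Mir181a pair 11 of the 24.

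**Figure D3:**
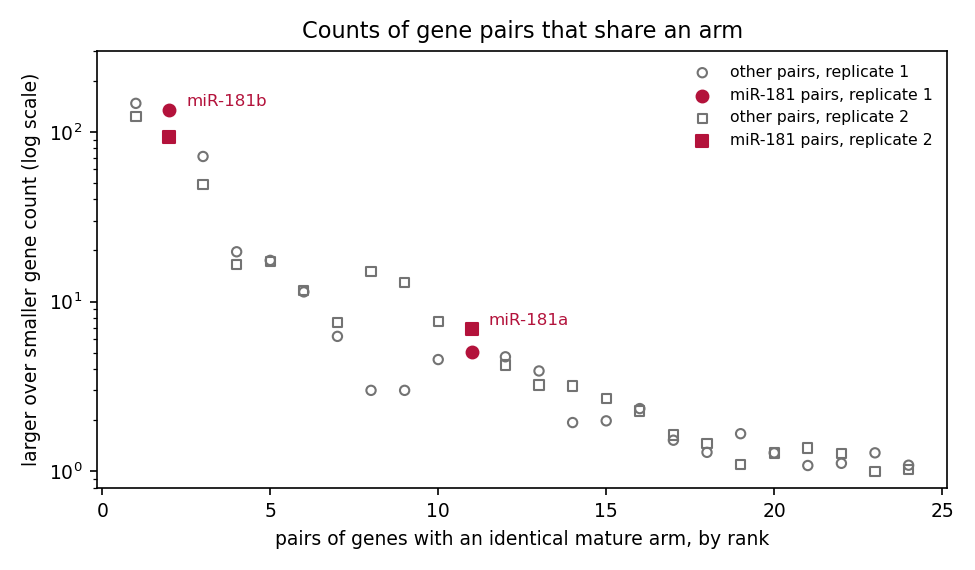
Larger over smaller gene count, with 0.5 added to each, on a log axis for the 24 pairs of miRNA genes with an identical mature arm, ranked by the mean over libraries on the horizontal axis, with circles for replicate 1 and squares for replicate 2. The miR-181b pair (red, rank 2) lies far above the median pair and the miR-181a pair (red, rank 11) near the middle.

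Between the libraries, 0 of the 6 genes passed the test. This was a two-sided exact binomial test over 360 genes, with library sizes from TMM scaling (the trimmed mean of M-values), and it asked for a ratio of at least 2-fold and an adjusted p (Benjamini-Hochberg) under 0.05. Of all genes tested, 10.3% passed (37 of 360), 3.89% as higher in replicate 1 and 6.39% as higher in replicate 2. Each dam gave a single library, so the test is one of these libraries against each other, with no check by replicates. The family's summed log2 ratio, replicate 1 over replicate 2, was 0.05 (exact 95% interval 0.03 to 0.07). Without the fold minimum 5 of 6 members passed, 3 as higher in replicate 1 and 2 as higher in replicate 2. Of all tested genes 56.7% passed in that way, 29.2% as higher in replicate 1 and 27.5% as higher in replicate 2.

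With this scaling the log2 ratios of 3 members lay above 0 and those of 3 below 0. Mir181a-2 had the largest ratio above 0, at a log2 ratio of 0.43 (0.33 to 0.52), or 1.35-fold, followed by Mir181d at 0.16 (0.13 to 0.19) and Mir181c at 0.05 (0.03 to 0.07). Those below 0 were Mir181b-1 at -0.89 (-1.68 to -0.19; exact binomial test, adjusted p = 0.0186), Mir181b-2 at -0.37 (-0.43 to -0.30) and Mir181a-1 at -0.03 (-0.07 to 0.01). The median over the 6 was 0.01, against -0.02 over all 360 genes, and the median absolute ratio was 0.26, against 0.29. Scaling by total counts lowers every log2 ratio by 0.21. With it Mir181c stood at -0.17 and Mir181d at -0.05, so the direction of these genes depends on the scaling, and Mir181b-1 reached -1.10 and passed the test. With DESeq2 size factors Mir181c was at -0.00. Mir181a-2 stayed above 0 (0.22 with total counts) and both Mir181b genes below 0 under each scaling. With counts summed over copies of an identical arm, the Mir181a genes had a log2 ratio of 0.04 and the Mir181b genes one of -0.37.

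**Figure D4:**
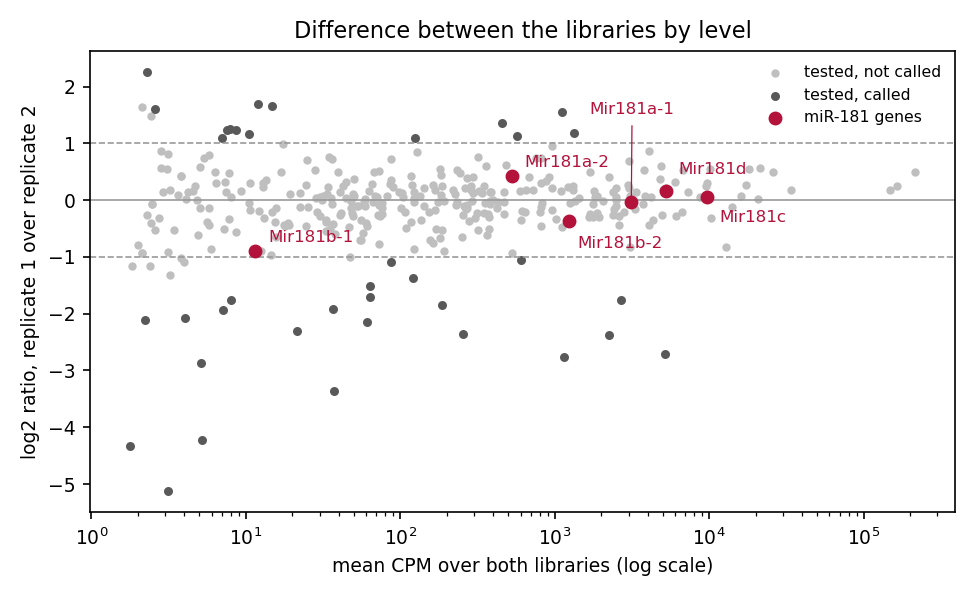
Log2 ratio of replicate 1 over replicate 2 against mean CPM (log axis) for the 360 tested miRNA genes, with the 6 miR-181 genes in red, called genes in dark grey and dashed lines at 2-fold. All 6 miR-181 genes lie between the dashed lines, with Mir181b-1 lowest at -0.89.

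The ratios of neighbouring miRNA genes were set side by side. Among 105 pairs of tested neighbours on 1 strand with at most 10000 bases between them, the median absolute difference in log2 ratio was 0.33 (quartiles 0.16 and 0.56). Mir181c and Mir181d, at 0.11, ranked 88. Mir181a-1 and Mir181b-1 ranked 11 at 0.86, and Mir181a-2 and Mir181b-2 ranked 15 at 0.80, both above the upper quartile. Pairs of one cluster can share a gene, and the ranks are a description without a test.

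**Figure D5:**
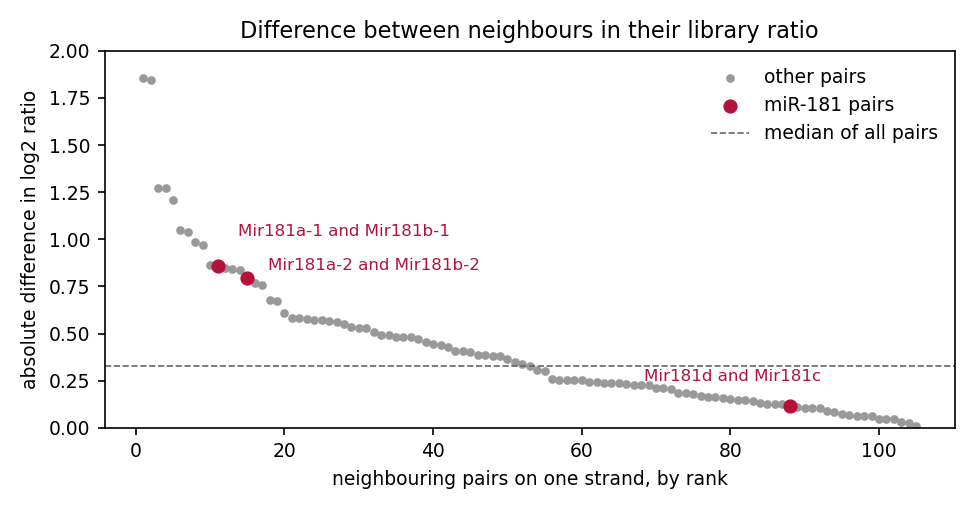
Absolute difference in log2 ratio (replicate 1 over replicate 2) between neighbouring miRNA genes on 1 strand, for 105 pairs ordered by rank, with miR-181 pairs in red and a dashed line at the median of 0.33. The pairs on chromosomes 1 and 2 lie at 0.86 and 0.80, above the median, and the pair of Mir181c and Mir181d lies at 0.11.

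By level, the genes next to Mir181c in rank were Mir17 at 10296 ± 2605 CPM and Mir149 at 10159 ± 1700 CPM above it, and Mir615 at 9643 ± 420 CPM and Mir137, a neuronal miRNA gene, at 9457 ± 193 CPM below it (SD, n = 2). The values of all 4 overlapped the range of Mir181c, so its rank among them is not settled. By ratio between the libraries, the 4 genes closest to the summed family among 277 with at least 100 counts were Mir26b, Mir301, Mir324 and Mir666, at log2 ratios of 0.05 each, against 0.05 for the family. This likeness rests on 2 libraries and 1 ratio.

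Markers of the tissue and of other cell types were taken from lists of miRNA genes. The neuronal list, with 11 of 12 genes measured and 8 detected (10 counts or more in each library), had a sum of 14895 CPM in replicate 1, against 13955 CPM in replicate 2. Most of this sum was Mir137, at 9594 CPM in replicate 1 and 9321 CPM in replicate 2, while Mir124a-1 had 21 and 23 counts. Some miRNAs of neural tissue were thus present in both libraries. Reads at several positions were left out here too. The low count of Mir124a-1, a gene with copies, is thus not the level of its mature miRNA. The neural progenitor list (4 of 4 genes detected) had 7871 CPM in replicate 1 and 7387 CPM in replicate 2. The oligodendrocyte list had 2674 and 2541 CPM, and the astrocyte and progenitor list 3126 and 3216 CPM. In these lists, the neuronal one aside, 0 genes passed the test. Leukocytes, the cells in which miR-181 is best known, had 4 of 5 listed genes measured, all 4 detected and none at 0, with a sum of 152 CPM in replicate 1 beside 18709 CPM for the miR-181 family, and of 280 CPM in replicate 2 beside 20947 CPM for the family. Mir142 of that list was not analysed here. 1 of its 4 measured genes passed the test as higher in replicate 2. In that direction, 3 of 3 genes of the sensory cluster passed (2109 CPM in replicate 1 and 15050 CPM in replicate 2 in sum). These genes are neighbours at 1 locus, with 116 and 3453 bases between them, and are not independent. Of the mesenchymal list 5 of 6 genes passed (4 of 6 detected, 1197 CPM in replicate 1 and 4894 CPM in replicate 2). In that list Mir143 and Mir145a are neighbours, as are Mir199a-2 and Mir214, and Mir199a-1 had 0 counts in replicate 1 and 2 counts in replicate 2. Both Mir181b genes had ratios in this direction, but neither passed with TMM scaling. The endothelial gene Mir126a, the only one of its list analysed here, had 8443 and 17271 CPM. With TMM scaling its log2 ratio was -0.82, also higher in replicate 2, and it did not pass because it fell short of the fold minimum. In the other direction, that of Mir181a-2, 2 of 11 measured neuronal genes and 1 of 3 erythroid genes passed as higher in replicate 1. The 2 neuronal genes were Mir128-1 and Mir128-2, copies that share an arm. Of the neuronal genes that did not pass, Mir137 had a log2 ratio of 0.25 and Mir138-1 one of -0.47. The erythroid gene was Mir486 at 1.69, while Mir451a (-0.24) and Mir144 (-0.39) lay below 0. The erythroid list had a sum of 94.3 CPM in replicate 1 and 113 CPM in replicate 2. The part of these lists in the ratios of the miR-181 genes was not tested. In tissue samples of this kind, fewer cells of a type and less RNA per cell cannot be told apart.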

How the data were processed

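MicroRNA sequencing counts from 2 libraries of 1 group were used. The authors deposited a table of raw counts of reads per miRNA gene for each library. The counts rest on alignments to mm10 with the gene annotation M4, per the notes deposited beside them. For the aligner, trimming and counting tool, nothing is given in the sources used here. Rows that name no gene stayed out of library sizes and tests. They were reads at several positions (32.4% in replicate 1 and 33.3% in replicate 2), unmapped reads (11.5% and 11.8%), reads on the sense strand of no gene (2.75% and 3.01%) and ambiguous reads (0% in each). The exact tests and intervals treat each read as an independent draw. No molecular identifiers are stated, so reads copied from 1 molecule could not be told apart, and the intervals may be too narrow.

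Column 3, the sense counts, was used, with CPM taken over its total on gene rows. Names, positions and overlapping genes came from GENCODE M21 (GRCm38, the assembly also called mm10), to which 1894 of 1973 identifiers matched without their version. Arms and hairpins came from RefSeq (GRCm38.p6), which gave mature arms for 6 of 6 members and a hairpin for 5 of 6, all but Mir181c. Arms were searched in the GENCODE transcripts of 2201 miRNA genes.

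Genes whose higher count reached 10 were tested with an exact binomial test in scipy 1.17.1, with a prior count of 0.5 in log2 ratios. Library sizes for it came from edgeR 4.0.16 (trimmed mean of M-values) under R 4.3.3. Detected means at least 10 counts in both libraries. A single library per dam leaves edgeR's quasi-likelihood test without residual degrees of freedom, and the p-values of the exact test reflect counting error alone. Intervals of ratios between members are exact conditional intervals. DESeq2 1.42.0 gave size factors as an alternative. Python 3.11.15, numpy 2.4.6, pandas 2.3.3 and matplotlib 3.10.9 were used. The test was also run on simulated counts with planted changes. Those counts varied by counting error alone, which the test assumes, so that run cannot show how the test behaves with further variation between libraries. The rule for named genes took the 6 members, the 4 genes next to the highest member by level and the 4 with the most similar ratio. The members and lists were chosen with earlier results of these data known.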

Additional observations from a re-analysis of the deposited data

How the results depend on the processing

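Levels depend on the denominator. With CPM taken over all reads of the table, the means were 5083 for Mir181c, 2767 for Mir181d, 1645 for Mir181a-1, 650 for Mir181b-2, 279 for Mir181a-2 and 10431 for the family, and with the most abundant gene left out of the total they were 12318, 6708 and 3985 for Mir181c, Mir181d and Mir181a-1, 678 for Mir181a-2 and 25275 for the family. The family's log2 ratio was -1.04e-05 with DESeq2 size factors and -0.16 with total counts, and Mir181b-1 passed the test with total counts at -1.10. Of all genes, total counts called 8 higher in replicate 1 and 35 higher in replicate 2. A filter of 100 counts called 20 (5 and 15), no fold minimum 204 (105 and 99), and edgeR's exact test with an assumed coefficient of variation of 0.2 called 21, with 4 higher in replicate 1. In the last of these 0 of 6 members passed. Without Mir181c, the loci of chromosomes 1, 2 and 8 held 30.8%, 17.3% and 51.8% of the family's counts. With up to 1 mismatch, miR-181b-5p and miR-181d-5p each matched 3 genes and miR-181b-1-3p matched 2. Of the 2 alternatives chosen after the data were seen, a minimum of 100 counts for pairs that share an arm left 19 pairs with the Mir181b pair at rank 2 and the Mir181a pair at rank 8, and neighbours within 2000 bases left 81 pairs with those of chromosomes 1 and 2 at ranks 7 and 11. Leaving out either library moved no level or share of a member or locus by more than 1 SD, which with 2 libraries holds by construction. No paired analysis was possible because the libraries form 1 group. The number of libraries limits what can be said of litters. Reads at several positions limit what can be said of miR-181a, miR-181b and other miRNAs encoded by gene copies.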
